A study of Mus musculus with 6 samples.

Results

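The Notch genes described here are 4 receptors (Notch1, Notch2, Notch3 and Notch4), 4 ligands (Jag1, Jag2, Dll1 and Dll4) and 2 transcriptional target genes (Hes1 and Hey1). They were found by their symbols among the gene names of the count matrices, and all 10 were present among the 31053 genes counted. Their transcripts were followed across endothelial, mural and other cell classes of the tissues that border the adult mouse brain.

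The libraries were droplet single-cell RNA-seq libraries (10x Genomics, 3′ ends) from adult wildtype C57BL6 mice of either sex, with no transgene, deletion or treatment in any group. Of the 6 libraries, 4 were made from the cortical surface (CSA libraries 1 to 4, the pial surface with the underlying superficial cortex) and 2 were bone-associated (BA libraries 1 and 2, labelled Dura/Skull, which the methods describe as meningeal tissue dissected off the inside of the skull). Each library pooled tissue from several mice, so the library was the replicate and the spread between single mice was not seen. The preparation protocol given with the libraries describes papain and another brain region, whereas the study's methods describe collagenase and dispase followed by a sort for live nucleated cells.

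After filtering, 8680 cells remained, 5272 from CSA and 3408 from BA libraries, with 739 to 2452 cells per library and medians of 5453 to 9556 unique molecular identifiers (UMIs) per cell. CSA libraries 3 and 4 stood apart: hemoglobin genes held 84.6% and 71.9% of the UMIs of all their barcodes, against 0.0908% to 0.520% in the other libraries, and still 17.9% and 11.6% of the UMIs in the cells kept. In their endothelial-like cells the hemoglobin share was 8.54% and 4.56%. Pairs of libraries shared at most 9 cell barcodes, and at most 2 among cells kept. Levels are given as CPM, the UMIs of a gene scaled to 1e+06 UMIs summed over the cells of a class in 1 library. In the order of classes for a gene, neighbours are said to overlap where their ranges of mean ± SD over libraries meet.

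Notch receptors are single-pass membrane proteins that are cut when a Jagged or Delta-like ligand on a neighbouring cell binds them. The freed intracellular part enters the nucleus, where it joins the DNA-binding protein RBPJ and turns on genes such as those of the HES and HEY repressor families. In blood vessels this exchange between adjoining cells is known for its part in arterial identity, in the choice between tip and stalk cells during sprouting, and in the maturation of pericytes and vascular smooth muscle cells (VSMCs).

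All 10 genes were annotated as protein-coding in the mm10 (GRCm38) assembly. The receptors lay at chr2:26457903-26516663 (Notch1, minus strand), chr3:98013527-98150361 (Notch2, plus), chr17:32120820-32166852 (Notch3, minus) and chr17:34564268-34588503 (Notch4, plus). The ligands lay at chr2:137081456-137116644 (Jag1, minus), chr12:112907819-112929776 (Jag2, minus), chr17:15367354-15376872 (Dll1, minus) and chr2:119325784-119335962 (Dll4, plus), and the target genes at chr16:30064384-30067796 (Hes1, plus) and chr3:8663359-8667256 (Hey1, minus). The antisense gene Gm17276 overlaps Notch3 and the non-coding gene A930024N18Rik overlaps Dll1, each on the opposite strand and each counted separately.

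Promoter sequence from RefSeq (GRCm38.p6) was matched for 8 of the 10 genes. The sequences upstream of Dll4, Notch4 and Notch3 are shown because these genes had opposite distributions over the vessel wall, with Dll4 and Notch4 transcripts in endothelial-like cells and Notch3 transcripts in mural cells. They run 5′ to 3′ on the strand of the gene, at chr2:119325534-119325783 (plus) for Dll4, chr17:34564045-34564267 (plus) for Notch4 and chr17:32166891-32167140 (minus) for Notch3, and capitals mark a GC box (GGGCGG or its complement CCGCCC, both strands searched).
Dll4: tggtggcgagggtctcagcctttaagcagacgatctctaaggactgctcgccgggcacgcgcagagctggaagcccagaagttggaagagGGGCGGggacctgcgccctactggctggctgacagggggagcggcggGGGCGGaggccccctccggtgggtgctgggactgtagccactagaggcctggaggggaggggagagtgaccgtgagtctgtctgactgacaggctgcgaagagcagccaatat
Notch4: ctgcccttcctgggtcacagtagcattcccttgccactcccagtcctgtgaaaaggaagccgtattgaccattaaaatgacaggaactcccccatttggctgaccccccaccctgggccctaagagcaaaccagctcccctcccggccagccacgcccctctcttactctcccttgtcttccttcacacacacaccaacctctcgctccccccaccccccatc
Notch3: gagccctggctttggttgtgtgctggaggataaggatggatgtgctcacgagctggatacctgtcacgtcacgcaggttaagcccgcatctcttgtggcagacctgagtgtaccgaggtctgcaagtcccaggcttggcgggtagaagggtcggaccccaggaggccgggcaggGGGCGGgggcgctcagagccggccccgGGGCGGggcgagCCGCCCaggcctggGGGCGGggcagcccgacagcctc
Dll4 had 2 such matches, Notch4 had 0 and Notch3 had 4 in the windows shown, and 32.7% of the 32851 mouse promoters in the same set held at least 1 in a window of 250 bases. The core of the RBPJ motif (TGGGAA or its complement TTCCCA) was not found in the windows of these 8 genes and was present in 21.6% of all promoters, which says only that these letters are not in these windows.

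Cells were clustered for each preparation without the 10 genes and without a list of 48 other Notch pathway genes, so that none of them placed a cell. Clusters were named from marker genes, and 1230 cells (14.2%) stayed unnamed. Endothelial-like cells carried their own 14 markers at a summed level of 18689 to 21959 CPM in CSA and 15485 to 16913 CPM in BA libraries, with none of the 14 at 0. Their summed pericyte markers reached 14.2 to 601 CPM in CSA libraries, with up to 6 of the 9 at 0 in a library, and 51.9 to 57.4 CPM in BA libraries. Pericyte-like cells held 15377 to 22549 CPM of the pericyte list and 4033 to 5809 CPM of the VSMC list, and VSMC-like cells 54469 to 61989 CPM of the VSMC list and 779 to 2397 CPM of the pericyte list. The part of these other-class markers in the levels below was not tested. In the 7189 barcodes of CSA libraries 3 and 4 with under 500 genes, the 10 genes lay between 0 and 4.65 CPM of the non-hemoglobin UMIs, with Notch2 the highest. The other 4 libraries had only 29 to 86 such barcodes each, in which the genes reached higher levels from at most 15 UMIs. The highest were 251 CPM (Hes1, BA library 2), 200 CPM (Notch1, BA library 2), 147 CPM (Hes1, CSA library 1), 122 CPM (Notch2, CSA library 1) and 119 CPM (Notch3, CSA library 2). The part of free RNA in the levels below was not tested. At least 10 cells of a class in a library were needed for a value, and CSA libraries 3 and 4, with 0 and 2 VSMC-like cells, gave none for that class.

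**Figure D1:**
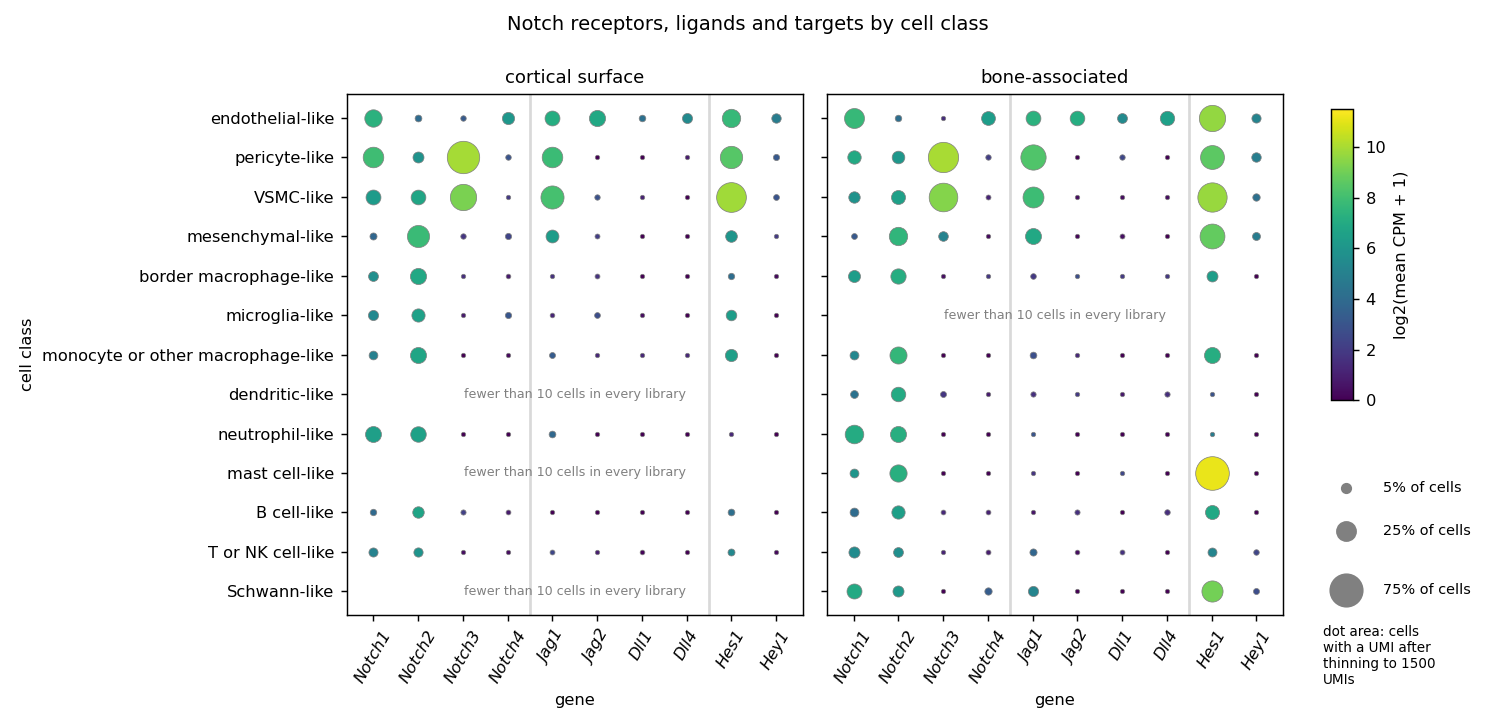
Level of the 10 Notch genes (columns) in named cell classes (rows) of the CSA and BA preparations, without astrocyte-like, choroid plexus-like and erythroid-like cells. Colour is log2(mean CPM + 1) over libraries and dot area is the percentage of cells with a UMI after each cell was thinned to 1500 UMIs. Notch4, Jag2, Dll1 and Dll4 are highest in endothelial-like cells of both preparations, Notch3 in pericyte-like and VSMC-like cells, and Hes1 in VSMC-like cells and, in BA libraries, mast cell-like cells.

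To ask how the receptors were divided between the layers of the vessel wall, their levels were compared first among endothelial-like, pericyte-like and VSMC-like cells. Notch3, the receptor known for its requirement in arterial smooth muscle, was a transcript of mural cells. In pericyte-like cells it measured 1102, 888, 1001 and 913 CPM in CSA libraries 1 to 4 and 1182 and 844 CPM in BA libraries 1 and 2. In VSMC-like cells it measured 662 and 489 CPM in CSA libraries 1 and 2 and 739 and 578 CPM in the BA libraries. In endothelial-like cells it measured 22.3, 10.6, 0 and 0 CPM in the CSA libraries and 2.34 and 1.17 CPM in the BA libraries. Mural and endothelial-like values did not overlap in any library, and the pericyte-like level was above that of VSMC-like cells of the same library in all 4 libraries that had both. This order holds for the named classes alone, since some unnamed clusters led mostly by VSMC markers, described with the mural clusters below, held Notch3 near or above the pericyte-like level. After thinning to 1500 UMIs, 75.2% of CSA pericyte-like cells (95% exact interval 71.1% to 79.0%; 94.4% unthinned) and 65.7% of BA pericyte-like cells (57.1% to 73.6%; 97.1% unthinned) held a Notch3 UMI. The same share was 0.780% of CSA endothelial-like cells, 0 of 590 BA endothelial-like cells (which allows up to 0.508%), and 0.546% and 0.266% of B cell-like cells, which should lack the gene.

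Notch4, a receptor known as largely confined to endothelium, had the opposite distribution. Endothelial-like cells held 102, 67.7, 50.6 and 45.1 CPM in CSA libraries 1 to 4 and 85.5 and 78.9 CPM in the BA libraries. Pericyte-like cells held 2.47 to 10.9 CPM over the 6 libraries and VSMC-like cells 0.605 to 2.88 CPM over 4. In both preparations the endothelial-like level ranked highest of all named classes with no overlap with the next, which was microglia-like cells in CSA (7.55 ± 7.14 CPM, SD, n = 4) and Schwann-like cells in BA libraries (9.16 CPM).

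Notch1, the receptor through which Delta-like 4 is best known to act in endothelium, was shared by endothelial-like and mural cells, and the order of the classes differed between preparations. In CSA libraries the pericyte-like level (246 ± 32.7 CPM, SD, n = 4) did not overlap with the endothelial-like level (162 ± 23.4 CPM), which in turn lay above neutrophil-like cells (86.1 ± 29.7 CPM, n = 2). In BA libraries endothelial-like cells came first with 238 and 179.8 CPM, and neutrophil-like (132 ± 21.5 CPM), Schwann-like (123 ± 29.4 CPM) and pericyte-like cells (122 ± 30.5 CPM, n = 2 each) overlapped with each other below them. VSMC-like cells held 44.2 to 91.3 CPM over 4 libraries and mesenchymal-like cells 4.62 to 18.1 CPM over 6.

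Notch2 was highest in stromal and myeloid classes. In CSA libraries it was highest in mesenchymal-like cells, with 326, 299.9, 143 and 106 CPM in libraries 1 to 4, followed by border macrophage-like cells (164, 147, 75.3 and 92.5 CPM), and neighbouring classes in this order overlapped. In BA libraries the first places went to monocyte or other macrophage-like cells (240.4 and 148 CPM), mesenchymal-like cells (198 and 169.9 CPM) and mast cell-like cells (198 and 108 CPM), which also overlapped. Endothelial-like cells held 4.75 to 27.1 CPM over the 6 libraries, pericyte-like cells 23.0 to 100.2 CPM and VSMC-like cells 80.1 to 117 CPM. CSA libraries 3 and 4 lay below CSA libraries 1 and 2 for Notch2 in 8 of 8 classes measured in all 4, also after hemoglobin UMIs were left out. This was so in 4 of 8 classes for Jag1, 3 of 8 for Hes1 and 0 to 2 of 8 for each of the other Notch genes. The classes come from the same 4 libraries, and the share over all genes is not given here. The part of the hemoglobin load in this was not tested.

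**Figure D2:**
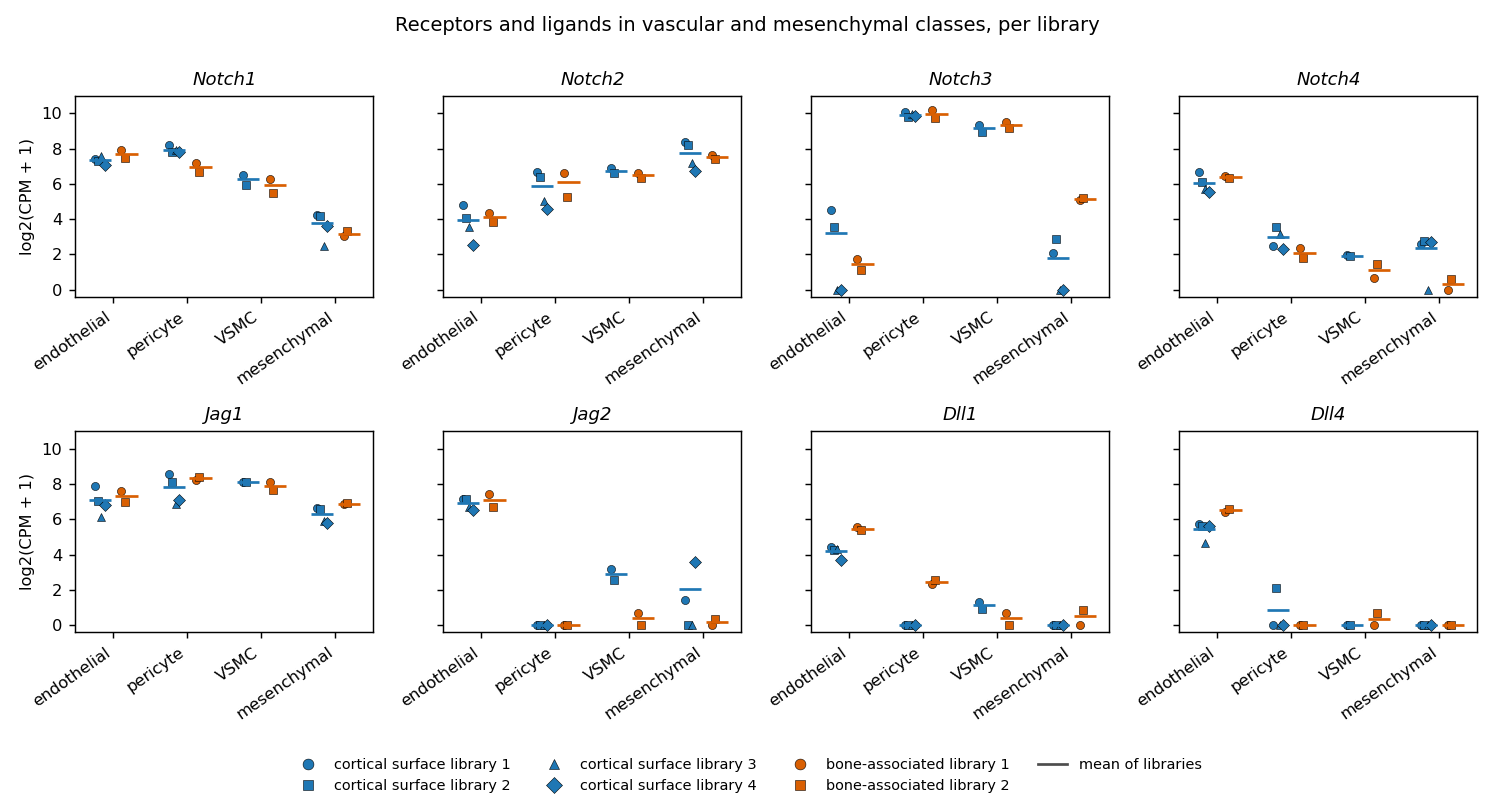
Levels of the 4 receptors and 4 ligands as log2(CPM + 1) in endothelial-like, pericyte-like, VSMC-like and mesenchymal-like cells. Each point is 1 library (CSA or BA by colour) and each bar is the mean over libraries; Notch3 points of mural cells lie above all endothelial-like points, and Notch4, Jag2, Dll1 and Dll4 points of endothelial-like cells above all mural points.

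Comparisons between classes paired the cells of the same library in edgeR's quasi-likelihood test over all genes detected in over 10% of cells of either class. A gene was called at a Benjamini-Hochberg adjusted p under 0.05 with a log2 fold change of at least 1.3, the size limit of the study. The p-values measure the spread between pooled libraries. Between endothelial-like and pericyte-like cells (6 libraries each), 23.5% of 7991 genes were called (12.4% higher in endothelial-like and 11% in pericyte-like cells), and 6 of the 10 Notch genes. Notch4, Dll1, Dll4 and Jag2 were called higher in endothelial-like cells, and Notch2 and Notch3 higher in pericyte-like cells. The median absolute log2 fold change of the 10 was 2.82, against 0.47 over all genes tested. This is a description and no test of the group, since the genes were chosen with earlier results of these data known. Jag2, Dll4, Dll1 and Notch4, with 0, 3, 5 and 21 UMIs in pericyte-like cells, passed the detection filter only through endothelial-like cells. Notch3, with 39 UMIs in endothelial-like cells, passed it only through pericyte-like cells.

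Among the receptors, Notch3 was lower in endothelial-like than in pericyte-like cells by a log2 fold change of -7.67 (SE 0.54, adjusted p = 9.2e-07, edgeR) and Notch2 by -2.03 (SE 0.19, adjusted p = 6.62e-06), each in 6 of 6 libraries. Notch4 was higher in endothelial-like cells by 3.61 (SE 0.29, adjusted p = 2.21e-06). Notch1 was not called, at -0.16 (SE 0.21, adjusted p = 0.588).

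Between endothelial-like and VSMC-like cells (4 libraries each), 28% of 8921 genes were called (14.7% higher in endothelial-like and 13.4% in VSMC-like cells). Of the 10 Notch genes, the same 6 were called as against pericyte-like cells. Dll4, Dll1, Notch4 and Jag2, with 1, 5, 14 and 23 UMIs in VSMC-like cells, passed the detection filter only through endothelial-like cells. Notch3, with 39 UMIs in endothelial-like cells, passed it only through VSMC-like cells. The log2 fold change was -6.90 for Notch3 (SE 0.63, adjusted p = 7.59e-05), -2.72 for Notch2 (SE 0.16, adjusted p = 8.21e-06) and 5.02 for Notch4 (SE 0.28, adjusted p = 7.95e-06). Notch1 was higher in endothelial-like cells by 1.19 (SE 0.18, adjusted p = 0.00111), under the size limit, and passed it at 1.36 without CSA library 1. Between pericyte-like and VSMC-like cells, with 15.6% of 8253 genes called (7.85% higher in pericyte-like and 7.71% in VSMC-like cells), 1 of the 6 Notch genes tested was called, the target gene Hes1, and Notch4, Jag2, Dll1 and Dll4 were detected in too few mural cells to be tested. Notch3 differed by 0.43 (SE 0.13, adjusted p = 0.0315) and Notch1 by 1.18 (SE 0.16, adjusted p = 0.000379), both higher in pericyte-like cells and both under the size limit. Notch2 was lower in pericyte-like cells in 4 of 4 libraries by -0.67 (SE 0.18, adjusted p = 0.0173), also under it, and Hey1 differed by 0.27 (SE 0.28, adjusted p = 0.522). Notch1 passed the limit at 1.31 without BA library 1 and at 1.40 without the clusters led by Ccl19, Colec11 or Ccl11.

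The ligands Jag2, Dll4 and Dll1 were transcripts of endothelial-like cells. Jag2, one of the Jagged ligands, measured 143, 140.3, 101 and 90.2 CPM in CSA libraries 1 to 4 and 171 and 104 CPM in the BA libraries. Not a single Jag2 UMI was found in the pericyte-like cells of any of the 6 libraries. The endothelial-like level was thus at least 152-fold higher, taking 3 UMIs over all pericyte-like cells as the limit that a count of 0 allows, with an adjusted p of 1.68e-05 in edgeR's test. In thinned cells the share with a Jag2 UMI was 17.7% of CSA and 14.2% of BA endothelial-like cells, and 0 of 488 CSA and 0 of 137 BA pericyte-like cells, which allow up to 0.615% and 2.19%. VSMC-like cells held 7.91 and 5.00 CPM in CSA libraries 1 and 2 and 0.605 and 0 CPM in the BA libraries, and the log2 fold change of endothelial-like over VSMC-like cells was 5.14 (SE 0.49, adjusted p = 9.46e-05).

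Dll4, the Delta-like ligand known from tip cells and arteries, measured 52.6, 47.8, 24.0 and 47.5 CPM in endothelial-like cells of CSA libraries 1 to 4 and 84.9 and 95.3 CPM in those of the BA libraries. Both BA values lay above all CSA values. Pericyte-like cells had Dll4 UMIs in 1 of 6 libraries (3.27 CPM in CSA library 2), and the pooled ratio of endothelial-like over pericyte-like cells was 88.6, with a counting interval of 30.2 to 431. VSMC-like cells had 1 Dll4 UMI in all, for a ratio of 547 with an interval of 97.8 to 21653. Both differences were called, with adjusted p = 2.58e-06 and 4.33e-06 in edgeR's test. The GC boxes of the Dll4 promoter printed above were not tested against these levels.

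Dll1, a Delta-like ligand, measured 20.7, 18.001, 18.7 and 11.9 CPM in CSA and 45.7 and 40.5 CPM in BA endothelial-like cells, and 0 in pericyte-like cells of all 4 CSA libraries, with 4.09 and 4.94 CPM in those of the BA libraries. The log2 fold change of endothelial-like cells was 4.01 over pericyte-like cells (SE 0.49, adjusted p = 5.34e-05) and 4.99 over VSMC-like cells (SE 0.50, adjusted p = 0.000121).

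Jag1 differed from the other ligands in that all vascular and stromal classes carried it. Pericyte-like cells measured 387, 277, 117 and 136 CPM in CSA libraries 1 to 4 and 303 and 344 CPM in the BA libraries. VSMC-like cells measured 281 and 277 CPM in CSA libraries 1 and 2 and 279 and 198 CPM in the BA libraries. Endothelial-like cells measured 241, 133, 69.3 and 110.3 CPM in CSA and 196 and 125 CPM in BA libraries. These 3 classes overlapped with their neighbours in the order of levels in both preparations. Mesenchymal-like cells, at 55.5 to 119 CPM over the 6 libraries, overlapped with endothelial-like cells above them and not with the class below, neutrophil-like cells in CSA (13.5 ± 17.0 CPM) and Schwann-like cells in BA libraries (36.8 CPM). Paired within libraries, Jag1 was lower in endothelial-like than in pericyte-like cells by -0.85 (SE 0.17, adjusted p = 0.00161) and than in VSMC-like cells by -0.90 (SE 0.17, adjusted p = 0.0029), both under the size limit. The pericyte-like and VSMC-like levels differed by 0.08 (SE 0.17, adjusted p = 0.771).

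To ask how the Notch genes were arranged along the vascular tree, arterial-like endothelial cells were compared with the other endothelial-like cells of the same library, in the 5 libraries with at least 10 arterial-like cells (14 to 115 each; CSA library 3 had 5). Arterial-like clusters were recognised by markers such as Sema3g, Gja4 and Stmn2, which led all of them. Gkn3, Bmx and Gja5 led some of them, and Efnb2 only those of CSA libraries. A BA cluster of 48 cells was named from Sema3g, Gja4 and Stmn2 alone. None of the 10 genes or of the list of other Notch pathway genes was used. All 5 Notch genes called were higher in arterial-like cells. They were Jag1, Jag2, Notch4, Dll4 and Hey1, 5 of the 8 tested, where 7.69% of 7728 genes were called in either direction with 3.7% higher and 3.99% lower in arterial-like cells.

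Jag1 showed the greatest log2 fold change of the 8. It measured 735, 625 and 380.1 CPM in arterial-like cells of CSA libraries 1, 2 and 4 and 652 and 366 CPM in those of the BA libraries, against 85.8, 61.8, 41.7, 65.5 and 46.9 CPM in the other endothelial-like cells of the same libraries. The ranges did not overlap, and the log2 fold change was 3.21 (SE 0.14, adjusted p = 1.18e-07, edgeR). The arterial-like level also exceeded that of the pericyte-like cells in each of these libraries and that of the VSMC-like cells in the 4 that had them. VSMC markers were higher in arterial-like than in the other endothelial-like cells of each library, at 1718, 423 and 111 CPM against 155, 208 and 46.1 CPM in CSA libraries 1, 2 and 4 and at 1349 and 321 CPM against 152 and 175 CPM in the BA libraries, with 0 to 8 of the 10 markers at 0 in arterial-like cells. Jag2 followed with 334, 418, 239.7, 399.6 and 235 CPM against 83.7, 100.2, 52.1, 105 and 62.1 CPM (2.04, SE 0.13, adjusted p = 1.07e-06).

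Notch4 measured 180.5, 187 and 111 CPM in arterial-like cells of CSA libraries 1, 2 and 4 and 155 and 110.5 CPM in those of the BA libraries, against 28.3 to 77.4 CPM in the other endothelial-like cells. Its log2 fold change of 1.33 (SE 0.20, adjusted p = 0.000584) stood close to the size limit and fell under it in several alternatives (1.18 without CSA library 2, 1.25 without CSA library 4). Notch1 was higher by 0.72 (SE 0.18, adjusted p = 0.0185), at 256 ± 43.3 CPM against 156 ± 45.5 CPM (SD, n = 5), and was not called. Notch2 and Notch3 were detected in too few cells to be tested. Arterial-like cells of CSA library 1 held 73.5 CPM of Notch3 from 11 UMIs, beside summed pericyte markers of 2253 CPM and the VSMC markers given above, whereas those of the other libraries held 0 to 10.5 CPM.

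Dll4 measured 174, 138 and 164 CPM in arterial-like cells of CSA libraries 1, 2 and 4 against 14.6, 34.8 and 17.9 CPM in the others, and 124 and 121 CPM against 73.8 and 86.9 CPM in the BA libraries. The log2 fold change over all 5 libraries was 1.57 (SE 0.37, adjusted p = 0.0121), and with every cell thinned to 1500 UMIs it was 0.89 (adjusted p = 0.297) and no longer called. In BA libraries the highest Dll4 level was in peripheral capillary-like cells, at 185 and 171 CPM, and venous-like cells held 12.7 and 31.4 CPM. Dll1 was the ligand without an arterial difference, at 0.00 (SE 0.24, adjusted p = 0.999), and its highest levels in BA libraries were in venous-like cells (81.6 and 57.2 CPM).

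Hey1, a repressor of the HEY family, measured 66.8, 123 and 169.6 CPM in arterial-like cells of CSA libraries 1, 2 and 4 and 103 and 80.5 CPM in those of the BA libraries, against 7.44 to 25.6 CPM in the other endothelial-like cells (2.63, SE 0.30, adjusted p = 7.07e-05). Hes1 was higher in arterial-like cells in 4 of 5 libraries and was not called (0.59, SE 0.24, adjusted p = 0.147). Of 31 other pathway genes tested, 1 was called (3.23%, against 7.69% of all genes). It was Hey2, a HEY repressor known from arterial specification, at a log2 fold change of 4.19.

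**Figure D3:**
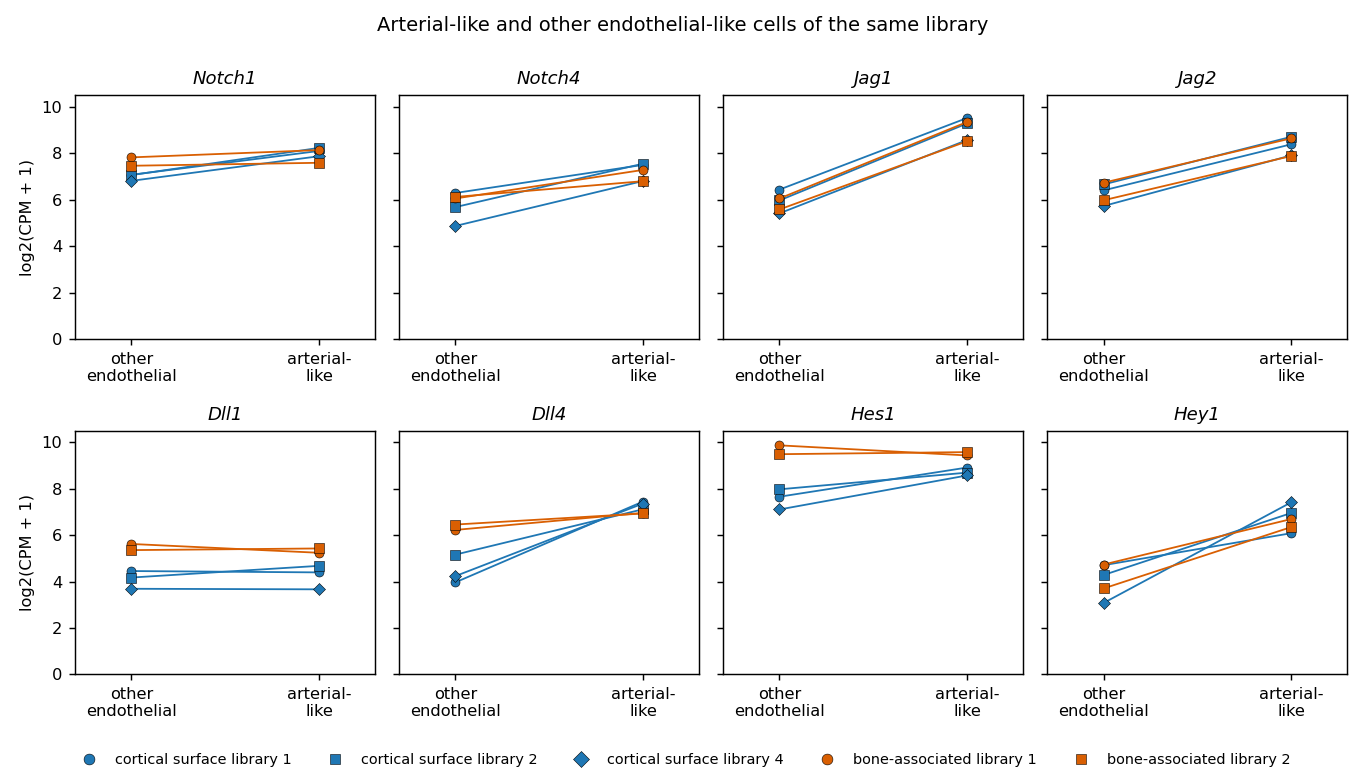
Levels of 8 Notch genes as log2(CPM + 1) in arterial-like and other endothelial-like cells, with a line joining the points of the same library (5 libraries, CSA and BA by colour). All 5 lines rise towards arterial-like cells for Jag1, Jag2, Notch4, Dll4, Hey1 and Notch1.

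The target genes Hes1 and Hey1 had different distributions. Hes1, a repressor that many pathways besides Notch can induce, was highest of all CSA classes in VSMC-like cells, with 862 and 1018 CPM in CSA libraries 1 and 2 and 741 and 931 CPM in the BA libraries, where endothelial-like cells overlapped with them. Pericyte-like cells held 336, 541, 184 and 345 CPM in CSA and 299 and 479 CPM in BA libraries. Endothelial-like cells split by preparation, with 268, 271, 93.3 and 186 CPM in CSA and 881 and 729 CPM in BA libraries. In BA libraries mast cell-like cells exceeded all other classes at 2074 and 2419.8 CPM, and 81.2% of them held a Hes1 UMI after thinning (exact interval 69.9% to 89.6%). Schwann-like cells of the BA libraries held 521 and 546 CPM.

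Between pericyte-like and VSMC-like cells Hes1 was the only Notch gene called of the 6 tested (16.7%, against 15.6% of all genes). It was lower in pericyte-like cells, at -1.40 (SE 0.15, adjusted p = 7.27e-05, edgeR). Between endothelial-like and VSMC-like cells it differed by -1.20 (SE 0.37, adjusted p = 0.0263), under the size limit, and passed it without either BA library (-1.58 and -1.40). Between endothelial-like and pericyte-like cells it was not called at -0.16 (SE 0.30, adjusted p = 0.701). This value joins opposite differences, since Hes1 was lower in endothelial-like cells in all 4 CSA libraries and higher in both BA libraries.

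Hey1 rested on fewer UMIs. Endothelial-like cells held 35.1, 31.7, 2.67 and 40.3 CPM in CSA and 42.7 and 28.7 CPM in BA libraries, pericyte-like cells 2.70 to 11.7 CPM in CSA and 28.6 and 28.4 CPM in BA libraries, and VSMC-like cells 5.75 to 19.4 CPM. It differed by 1.15 between endothelial-like and pericyte-like cells (SE 0.45, adjusted p = 0.0588; called at 1.75, adjusted p = 0.00953, without BA library 2) and by 1.19 between endothelial-like and VSMC-like cells (SE 0.32, adjusted p = 0.0157), under the size limit but at 1.60 without BA library 2. The highest CSA level, 61.3 CPM in astrocyte-like cells, rested on 11 UMIs in the 10 cells of 1 library.

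**Figure D4:**
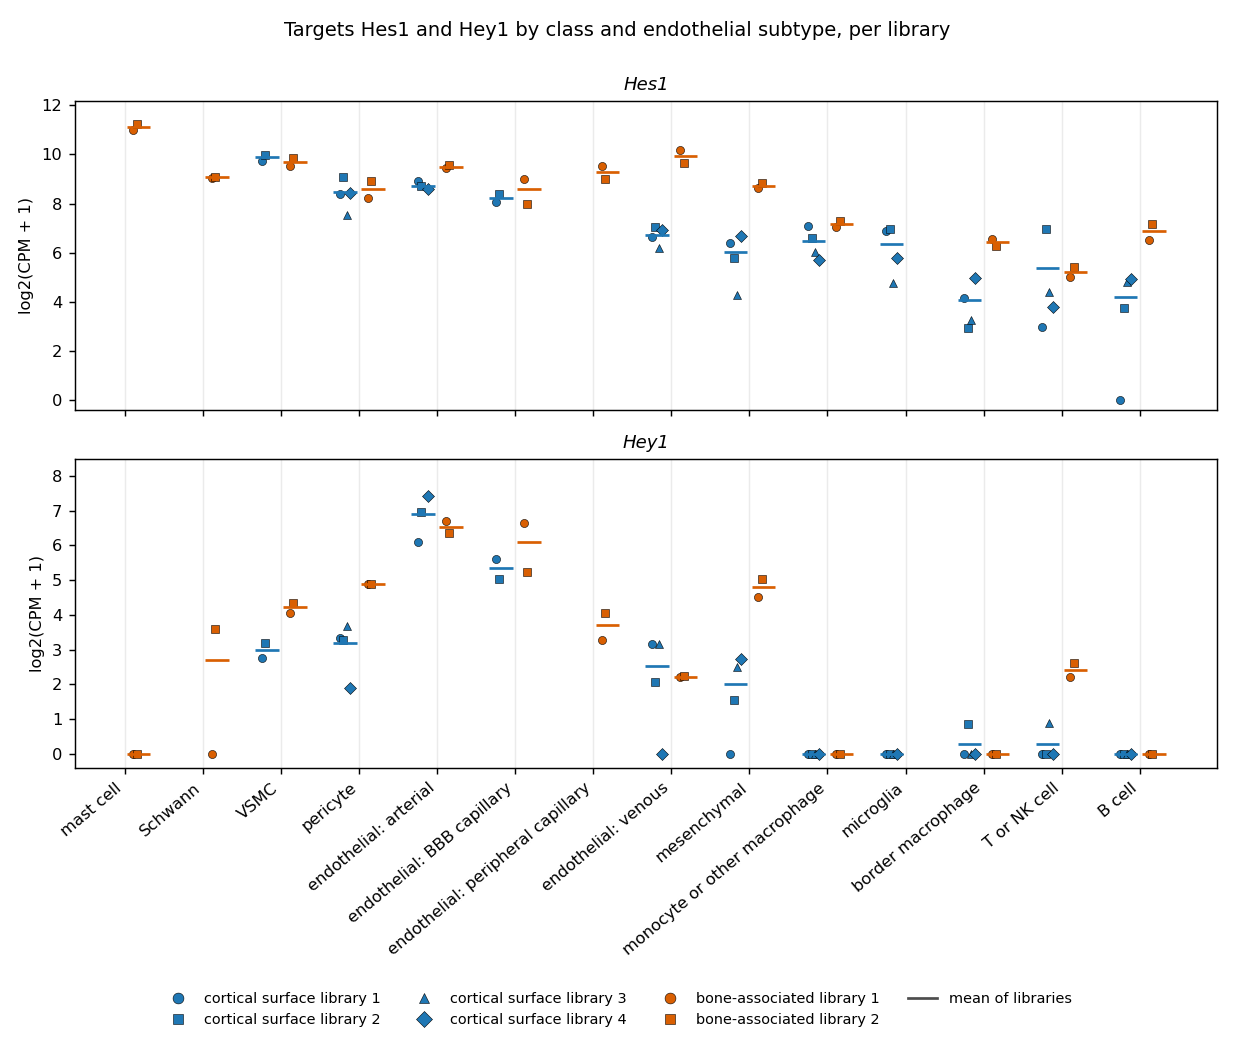
Levels of Hes1 and Hey1 as log2(CPM + 1) by cell class and by endothelial subtype. Each point is 1 library (CSA or BA by colour). Hes1 points of BA arterial-like, venous-like and mesenchymal-like cells lie above those of CSA libraries, and those of cells like blood-brain barrier capillaries overlap. Hey1 points of arterial-like cells lie above those of venous-like cells.

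The 48 other pathway genes were ligands, glycosyltransferases, proteases, nuclear partners, negative regulators and further HES and HEY genes. Between endothelial-like and pericyte-like cells 12 of 35 tested (34.3%) were called, against 23.5% of all genes. Of the 12, 4 were higher in endothelial-like and 8 in pericyte-like cells. The 35 had a median log2 fold change of -0.08 against 0.00 over all genes. The glycosyltransferases of the fringe family, which modify Notch receptors, led the endothelial side, with log2 fold changes of 5.78 for Mfng and 5.04 for Lfng. Higher in pericyte-like cells were the HEY repressors Heyl (-7.04) and Hey2 (-3.89), the Deltex genes Dtx4 (-6.77) and Dtx3 (-3.57), Neurl1b (-3.11), a ubiquitin ligase gene, and Numbl (-1.95), a relative of the Notch inhibitor Numb. Heyl measured 251 ± 43.1 CPM in pericyte-like cells (SD, n = 6) and 150 ± 53.2 CPM in VSMC-like cells (n = 4), and Hey2 162 ± 58.6 CPM and 117 ± 41.0 CPM.

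Between endothelial-like and VSMC-like cells 11 of 36 (30.6%) were called, near the 28% of all genes. Mfng, without a UMI in VSMC-like cells, Lfng (6.47) and Adam10 (2.44), a protease gene of receptor cleavage, were among the 5 higher in endothelial-like cells. Heyl (-6.23), Hey2 (-3.74), Neurl1b (-3.20), Nrarp (-2.29), a feedback inhibitor of Notch, and Dtx3 (-2.12) were among the 6 higher in VSMC-like cells. Between pericyte-like and VSMC-like cells 4 of 35 (11.4%) were called, against 15.6% of all genes. Dtx4 (5.72), Dtx3 (1.52) and the coactivator gene Maml2 (1.35) were higher in pericyte-like cells and Nrarp (-1.33) was higher in VSMC-like cells. In endothelial-like cells of the 6 libraries Heyl had a mean of 2.21 CPM.

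To ask whether the Notch genes differed between vessels of the brain surface and those of the bone-associated meningeal tissue, each class was compared between CSA and BA libraries. Clusters were made separately in each preparation, and the preparation, its dissection and its libraries cannot be told apart. The endothelial-like class was made up differently, with 117 cells like blood-brain barrier capillaries, 19 peripheral capillary-like, 82 arterial-like and 214 venous-like cells of 539 in CSA and 37, 115, 156 and 153 of 599 in BA libraries. The rest stayed unnamed, a cluster of 107 cells in CSA and clusters of 74 and 64 cells in BA libraries. Hemoglobin genes led the CSA one, as did Hmcn1, Car4, Car5a and the barrier marker Mfsd2a. CSA libraries 3 and 4 gave 32 and 66 of its cells, but only 6 and 1 of the 117 cells like barrier capillaries. The named make-up thus also differed among CSA libraries. In endothelial-like cells (4 against 2 libraries), 6.5% of 7726 genes were called, 2.23% higher in CSA and 4.27% higher in BA libraries, and 2 of 9 Notch genes tested, both higher in BA libraries. Hes1 was the larger of them at -1.95 (SE 0.25, adjusted p = 1.97e-05, edgeR), with no overlap between the 268, 271, 93.3 and 186 CPM of CSA libraries and the 881 and 729 CPM of BA libraries. Without CSA libraries 3 and 4 it was -1.67 (adjusted p = 2.18e-05). The share of cells with a Hes1 UMI after thinning was 23.4% in CSA and 49.0% in BA libraries (46.9% and 79.1% unthinned), and in B cell-like cells 1.91% and 13.03%. B cell-like cells also differed in level, at 0 to 29.1 CPM in CSA and 90.9 and 145 CPM in BA libraries, and the part of free RNA in either difference was not tested.

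By subtype, Hes1 in venous-like cells was 71.6 to 131 CPM over the 4 CSA libraries and 1153 and 799 CPM in the BA libraries. In cells like the capillaries of the blood-brain barrier, where values came from 2 libraries of each preparation, it was 269.5 and 331 CPM against 514 and 254 CPM, which overlapped. In arterial-like cells it was 380.1 to 481 CPM against 691 and 764 CPM. These subtypes were not tested between preparations. The venous-like name covered unlike clusters. In BA libraries a venous-like cluster of 58 cells was also led by the barrier markers Slc16a1, Tfrc, Slc2a1, Slco1a4 and Slc22a8. Those of 63 and 32 cells were led by Selp and Sele, which led no venous-like cluster in CSA. The part of this in the Hes1 levels was not tested.

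Dll1 was the other gene called, at -1.33 (SE 0.25, adjusted p = 0.000799). This was close to the size limit and fell under it without CSA library 4 (-1.23), without BA library 1 (-1.29) and without CSA libraries 3 and 4 together (-1.27). Dll4 was higher in BA libraries by a log2 fold change of -1.01 (SE 0.23, adjusted p = 0.00478), under the size limit, and with arterial-like cells left out of both preparations by -1.77 (adjusted p = 0.000151). Peripheral capillary-like cells, the subtype with the highest Dll4 level in BA libraries, were too few in each CSA library to give a value, and the part of the make-up of the class in these differences was not tested. Notch1 (-0.36), Notch2 (-0.15), Notch4 (-0.31), Jag1 (-0.19), Jag2 (-0.17) and Hey1 (-0.20) did not pass the test, and Notch3 was not tested. Of 29 other pathway genes 0 were called by edgeR or DESeq2, and 5 had an unadjusted edgeR p under 0.05. The lowest edgeR adjusted p among the 29 was 0.0072, for a change under the size limit.

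In pericyte-like cells (4 against 2 libraries), 7.09% of 7450 genes were called (1.57% higher in CSA and 5.52% in BA libraries) and 1 of 6 Notch genes, Hey1, higher in BA libraries at -2.09 (SE 0.47, adjusted p = 0.00818). The call was lost without BA library 2, at a log2 fold change of -1.99. It was also lost without the clusters led by Ccl19, Colec11 or Ccl11, at -2.16 (adjusted p = 0.0533, edgeR). The size of the difference was thus similar in both. Hey1, with 19 UMIs in CSA and 30 in BA libraries, passed the detection filter only through BA libraries. Mesenchymal markers in pericyte-like cells summed to 2779 to 4981 CPM in BA and 1086 to 1587 CPM in CSA libraries, with up to 1 and 3 of the 10 at 0, and BA mesenchymal-like cells held Hey1 at 26.8 ± 7.04 CPM (SD, n = 2). The part of these markers in the Hey1 difference was not tested. Notch1 was higher in CSA libraries by 0.90 (SE 0.23, adjusted p = 0.0198), under the size limit, and passed it at 1.35 with up to 20% mitochondrial UMIs. Notch3 differed by -0.20 (adjusted p = 0.683), Jag1 by -0.65 (adjusted p = 0.3), Hes1 by -0.32 (adjusted p = 0.647) and Notch2 by -0.07 (adjusted p = 0.966). Notch4, Jag2, Dll1 and Dll4 were not tested here or in the VSMC-like and mesenchymal-like cells. Of 33 other pathway genes 0 were called by edgeR or DESeq2, with 5 at an unadjusted edgeR p under 0.05. The lowest edgeR adjusted p among the 33 was 0.0101, also for a change under the size limit.

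In VSMC-like cells (2 against 2 libraries), 5.9% of 8359 genes were called (2.06% higher in CSA and 3.84% in BA libraries) and 1 of 6 Notch genes, again Hey1, at -1.40 (SE 0.40, adjusted p = 0.0385). It was not called by DESeq2 (adjusted p = 0.196), without BA library 2 (adjusted p = 0.178) or without CSA library 1 (adjusted p = 0.184). The others lay between -0.33 (Notch3, adjusted p = 0.519) and 0.21 (Notch1, adjusted p = 0.770), with Notch2 at 0.12, Jag1 at 0.11 and Hes1 at 0.04. Of 34 other pathway genes 1 was called, Adam17 (-1.44), a protease gene. Hey1, with 26 UMIs in CSA and 59 in BA libraries, passed the detection filter only through BA libraries.

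In mesenchymal-like cells (4 against 2 libraries), 13.4% of 9540 genes were called (5.74% higher in CSA and 7.68% in BA libraries) and 3 of 6 Notch genes, all higher in BA libraries. Notch3 was 3.29, 6.42, 0 and 0 CPM in CSA and 32.7 and 36.1 CPM in BA libraries (-2.88, SE 0.49, adjusted p = 0.000424). Hes1 was 82.3, 53.9, 18.5 and 99.98 CPM against 396 and 454 CPM (-2.64, SE 0.36, adjusted p = 4.92e-05), and Hey1 was 0, 1.93, 4.62 and 5.55 CPM against 21.8 and 31.8 CPM (-3.70, SE 0.61, adjusted p = 0.000331). Notch3 and Hey1, with 12 and 5 UMIs in CSA libraries, passed the detection filter only through BA libraries. The libraries of the preparations did not overlap for these 3 genes, nor for Jag1, which was not called. They did not overlap for 10 of the 48 other pathway genes either, and the share over all genes is not given here. Lack of overlap therefore did not set the called genes apart. Hes1 was also higher in BA libraries in B cell-like cells, as given above. The part of free RNA in the Hes1 difference was not tested. Notch1 (0.89, adjusted p = 0.229), Notch2 (0.43, adjusted p = 0.473) and Jag1 (-0.41, adjusted p = 0.375) did not pass the test. The class was held by different clusters in the 2 preparations, in CSA by a cluster led by Slc6a13, Slc22a6 and Ptgds and in BA by several, in which Notch3 ranged from 14.5 CPM in a cluster led by Comp, Cilp2 and Chad to 70.4 CPM in one led by Apod, Inmt and Lum. VSMC markers summed to 971 to 1247 CPM in BA and 66.7 to 346 CPM in CSA mesenchymal-like cells, and pericyte markers to 254 to 367 CPM in BA and 3503 to 7561 CPM in CSA, with up to 7 of the 9 at 0 there. Their part in the Notch3 difference was not tested. Of 34 other pathway genes 3 were called. Dner, a non-canonical Notch ligand gene, was higher in BA libraries with 188 UMIs against 2 in CSA. Dtx4 (1.88) and Dtx1, with 46 UMIs in CSA and none in BA libraries, were higher in CSA libraries.

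Whether the preparations differed in the same way in endothelial-like and pericyte-like cells was tested as an interaction, with the library as a block, and 5.63% of 7991 genes were called (3.24% with a positive and 2.39% with a negative term) and 3 of the 10 Notch genes. For Hes1 the difference of CSA from BA libraries was lower in endothelial-like than in pericyte-like cells by -1.64 (SE 0.25, adjusted p = 0.000321), and it fell under the size limit at -1.23 without BA library 1 and at -1.15 in thinned cells. Hey1 (2.01, SE 0.61, adjusted p = 0.0487) and Notch3 (2.56, SE 0.75, adjusted p = 0.0428) were just under the threshold. Notch3 was not called without any 1 of BA library 1, BA library 2, CSA library 1 or CSA library 2 (adjusted p = 0.0953 to 0.241) and rested on 31 endothelial UMIs in CSA and 8 in BA libraries. Hey1 was called without CSA library 3 but not without any 1 of the other 5 (adjusted p = 0.0587 to 0.445). DESeq2 called neither (adjusted p = 0.822 for Notch3 and 0.649 for Hey1). Notch1 differed by -1.26 (SE 0.22, adjusted p = 0.00098), under the size limit, and passed it without BA library 1 (-1.31), without CSA library 3 (-1.33) and without CSA libraries 3 and 4 (-1.35). Notch4 (-1.37, adjusted p = 0.408), Notch2 (-0.15), Jag1 (0.53), Dll1 (4.08, adjusted p = 0.133) and Dll4 (-4.39, adjusted p = 0.401) did not pass the test, and for Jag2, without a UMI in pericyte-like cells, the difference could not be estimated. Of 35 other pathway genes 2 were called, Neurl1b (-2.80) and Numb (-1.49).

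**Figure D5:**
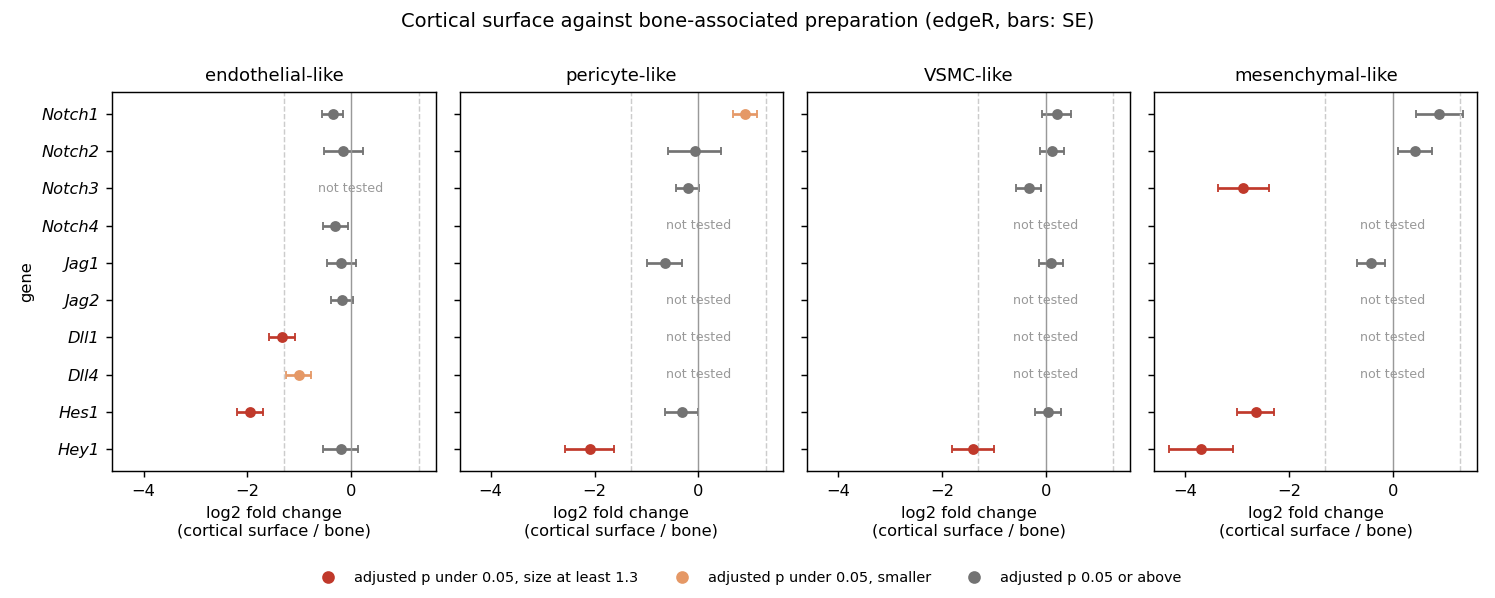
Log2 fold change of CSA over BA libraries for the Notch genes in endothelial-like, pericyte-like, VSMC-like and mesenchymal-like cells, with bars of 1 SE. Red points are called, orange points have an adjusted p under 0.05 with a smaller change, grey points do not pass and genes detected in too few cells are marked as not tested. All red points lie below 0, higher in BA libraries. The red points of Hey1 and Notch3 are of genes that passed the detection filter only through BA libraries.

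Within the mural classes, clusters differed in their Notch levels. In CSA libraries a pericyte-like cluster of 249 cells led by Atp13a5 and Abcc9, transporter genes of capillary pericytes, held 906 CPM of Notch3, 181 CPM of Jag1 and 275 CPM of Notch1. Another pericyte-like cluster, also of 249 cells and led by Ccl19 and Colec11, held 999 CPM of Notch3, 295 CPM of Jag1 and 222 CPM of Notch1. In BA libraries the pericyte-like cluster led by Abcc9 (80 cells) held 1042 CPM of Notch3 and 349 CPM of Jag1. Of the mural clusters that stayed unnamed, those of 15 cells in CSA and of 30 and 20 cells in BA libraries are not described here. The other CSA ones, unnamed because pericyte markers led them too, and the other BA one, unnamed because of its leading genes, carried Notch3 as well. It was 1247 and 1385 CPM in clusters of 26 cells each in CSA, led by 9 and 7 of the 10 VSMC markers, and 904 CPM in a cluster of 148 cells in BA libraries, led by 9 of the 10. A small VSMC-like cluster of 21 CSA cells held 1028 CPM of Notch3, against 523 CPM in the main one of 258 cells. These values are sums over cells of several libraries and no test was made between clusters.

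Outside the vessel wall, border macrophage-like and microglia-like cells of the 4 CSA libraries were compared, the latter being the resident macrophages of the parenchyma. With 16.5% of 7476 genes called (8.57% higher in border macrophage-like and 7.91% in microglia-like cells), 1 of 3 Notch genes tested was called. Hes1 was 16.8, 6.58, 8.56 and 30.4 CPM in border macrophage-like cells and 118, 123, 25.7 and 54.1 CPM in microglia-like cells of the same libraries (-2.48, SE 0.32, adjusted p = 7.04e-08, edgeR), lower in border macrophage-like cells in each library although the ranges overlapped. Notch1 (0.52, SE 0.18, adjusted p = 0.0185) and Notch2 (0.56, SE 0.14, adjusted p = 0.000876) were higher in border macrophage-like cells, both under the size limit, and the 7 other Notch genes were not tested. Of 32 other pathway genes 7 were called, 2 of them higher in border macrophage-like cells. These were Rbpj (2.10), the DNA-binding partner of the receptors, and Aph1b, a gamma-secretase subunit gene with 175 UMIs there and none in microglia-like cells. Dtx4 (-3.38), Numb (-3.34), Maml3 (-2.23), Mfng (-2.06) and Adam10 (-1.85) were higher in microglia-like cells. In BA libraries border macrophage-like cells held 93.9 and 75.6 CPM of Hes1, which overlapped with the levels of BA B cell-like cells given above.

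Genes with the most similar pattern were sought by the correlation of log2(CPM + 10) over the 26 class means of both preparations, among 8785 genes. These points share libraries and depth and are given as a description. Notch3 was most like Foxs1 (r = 0.99), Tbx2 (0.98) and Des (0.98), Notch4 like Shroom4 (0.96), Edn1 (0.96) and Kdr (0.95), and Dll4 like Flt4, Mall and Myct1 (0.99 each). Des, Kdr and Flt4 were themselves on the marker lists used to name clusters. Jag2 was most like Samd12 (0.97), Jag1 like Tns2, Lamb2 and Rhoj (0.95 each) and Dll1 like Igfbp3 (0.95). The likeness was lower for Hey1 (Ankrd29, 0.89), Hes1 (Tcf7l1, 0.84), Notch1 (Snrk, 0.75) and Notch2 (Dock11, 0.71). Among the 10 genes themselves the highest correlation was that of Jag2 with Dll4 (0.943), followed by Notch4 with Dll4 (0.934) and Dll1 with Dll4 (0.928), Notch3 correlated most with Jag1 (0.786), and the lowest value was that of Notch2 with Dll1 (-0.536).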

How the data were processed

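The values are raw counts of UMIs per gene and barcode, deposited by the authors as 6 matrices (1 a library) on mm10. The matrix headers name Cell Ranger 6.1.2, whereas the submitters' processing notes name Cell Ranger 3. Each library was grouped by its GEO title.

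Cells needed 500 or more genes and no more than 10% mitochondrial UMIs, and 124 doublet-like cells were removed (0.8% per 1000 cells, scored against 2 simulated doublets per cell). Free RNA was not corrected for. The 2 preparations were clustered separately and without Harmony, which the authors used for the cortical surface (2000 variable genes, 30 principal components, 15 neighbours, Leiden resolution 1.5), so clusters are rebuilt. Endothelial-like cells were clustered again (1000 variable genes, 15 components, resolution 1.0). A cluster took a class name from at least 3 leading markers, each in at least 20% of its cells and at least 2-fold above the other cells.

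UMIs were summed per class and library and tested with edgeR 4.0.16 (quasi-likelihood, TMM scaling, Benjamini-Hochberg adjustment over all genes tested), which was tested on simulated data. Comparisons of classes had the library as a block, those of preparations had none. The SE of a log2 fold change was not estimated by the model. It was derived from the test, as the absolute change divided by the square root of the F statistic. DESeq2 1.42.0, other filters, scalings and clusterings, thinning to 1500 UMIs per cell, replicate numbers as a block and left-out libraries were alternatives. Leaving out the clusters led by Ccl19, Colec11 or Ccl11, or the arterial-like cells was chosen after seeing the data. Intervals for shares are exact binomial at 95%, and intervals and limits cover counting error only. Libraries held 8408685 to 56169736 UMIs, of which the 10 genes had 1477 to 19343 in the cells kept.

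The 10 genes are named in every comparison. Of 48 other pathway genes those called are named, at most 8 a comparison by size, and for likeness the leading genes of at least 50 CPM in a class. Genes and lists were chosen with earlier results of these data known. Of 31053 gene identifiers, 31011 were found in GENCODE M21 (GRCm38). Python 3.11.15, scikit-learn 1.9.0, leidenalg 0.10.2 and R 4.3.3 were used.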

Additional observations from a re-analysis of the deposited data

Results flagged for a closer look

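In 35 groups of 4 CSA libraries, 2 had a library far from the other 3, where 1 in 20 groups, or 1.75, would be so by chance. Notch1 in monocyte or other macrophage-like cells was 7.54 CPM in CSA library 1 and 37.2 to 39.9 CPM in the other 3. Hes1 in T or NK cell-like cells was 124 CPM in CSA library 2 and 6.73 to 19.7 CPM in the other 3.

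For 4 genes the term for a difference between preparations that is unequal in endothelial-like and pericyte-like cells had an adjusted p under 0.05 in edgeR. Of these Notch1 was under the size limit, and Notch3 and Hey1 lost the call in DESeq2 and without most single libraries. The term was -1.64 for Hes1, for which CSA and BA libraries had 205 ± 84.0 and 805 ± 107 CPM in endothelial-like cells and 351 ± 147 and 389 ± 128 CPM in pericyte-like cells. It was -1.26 for Notch1, with 162 ± 23.4 and 209 ± 41.4 CPM against 246 ± 32.7 and 122 ± 30.5 CPM. It was 2.01 for Hey1, with 27.4 ± 16.9 and 35.7 ± 9.91 CPM against 8.07 ± 3.82 and 28.5 ± 0.166 CPM. It was 2.56 for Notch3, whose endothelial-like levels of 8.21 ± 10.6 CPM in CSA and 1.76 ± 0.827 CPM in BA libraries rested on 31 and 8 UMIs (SD, n = 4 CSA and 2 BA libraries throughout).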

How the results depend on the processing

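Of 1177 values of the 10 genes recomputed under an alternative, 1080 kept their direction and their side of the limits, 41 lost the call, 15 gained it and 41 changed sign, none of them that of a called gene. Values of levels moved by more than 1 SD in 0 of 80 (Leiden resolution 1.0, hemoglobin left out) to 21 of 80 (thinned cells). With cells thinned to 1500 UMIs, which leaves fewer UMIs, fewer genes were called: 920 between endothelial-like and pericyte-like cells (1874 in the comparison as reported), 1062 between endothelial-like and VSMC-like (2502), 599 between pericyte-like and VSMC-like (1284), 249 for arterial-like (594), 626 for border macrophage-like and microglia-like (1232), 243, 217, 153 and 571 between preparations in endothelial-like (502), pericyte-like (528), VSMC-like (493) and mesenchymal-like cells (1281), and 179 for the interaction (450). Fewer genes also passed the detection filter in thinned cells, so these counts come from fewer tests and do not give the share called. The genes tested were 2749 against 7728 for arterial-like cells and 2707 against 7726 between preparations in endothelial-like cells. For the interaction they were 3092 against 7991. Thinning raised the share of endothelial calls higher in CSA from 34.3% to 45.3%. With up to 20% mitochondrial UMIs 798 genes were called between preparations in pericyte-like cells, and DESeq2 called 230 for the interaction, 67.8% of them positive against 57.6%. The cause of these last changes was not tested.

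Without 1 replicate the same 10 counts ranged over 1829 to 1911, 2478 to 2594, 1257 to 1318, 544 to 620, 1182 to 1330, 425 to 524, 440 to 585, 464 to 568, 903 to 1360 and 259 to 438, and the lowest of these last pairs, 259, came without BA library 2, which lowered the interaction count by over 1.5 times.

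Library numbers in the labels pair no CSA with a BA library beyond the number. With them as a replicate block, 477, 560, 575 and 1396 genes were called between preparations in endothelial-like, pericyte-like, VSMC-like and mesenchymal-like cells, and Dll1 in endothelial-like cells was -1.24 and no longer called. Without the library as a block, 1845, 2483, 1183, 460 and 1234 genes were called between classes and 320 for the interaction, where Hes1 was then not called (adjusted p = 0.0679).

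The following signs changed, each for a value that was not called. Between endothelial-like and pericyte-like cells, Hes1 was 0.14 without the block, 0.15 without CSA libraries 3 and 4, 0.051 without the clusters led by Ccl19, Colec11 or Ccl11 and -0.46 to 0.057 without 1 replicate, and Notch1 was 0.061 with up to 20% mitochondrial UMIs. Between pericyte-like and VSMC-like cells Jag1 was -0.17 without those clusters and -0.10 to 0.22 without 1 replicate. For arterial-like cells Dll1 was -0.0090 with upper-quartile scaling, -0.046 with at least 1000 genes per cell and -0.060 to 0.15 without 1 replicate. Between preparations in endothelial-like cells, the replicate block gave 0.24 for Notch2, 0.11 for Jag1 and 0.044 for Jag2, and leaving out CSA libraries 3 and 4 gave 0.20 for Notch2 and 0.10 for Jag1. There Notch2 was 0.0073 with at least 1000 genes per cell, Jag2 0.18 in thinned cells, and Jag1 and Jag2 0.059 and 0.017 without arterial-like cells. Without 1 replicate these ranged over -0.48 to 0.11 for Notch2, -0.51 to 0.11 for Jag1, -0.45 to 0.16 for Jag2 and -0.43 to 0.032 for Hey1. In pericyte-like cells Notch2 was 0.44 with the replicate block, 0.41 without CSA libraries 3 and 4, 0.52 without those clusters and -0.74 to 0.53 without 1 replicate, and Hes1 -0.63 to 0.19. In VSMC-like cells Hes1 was -0.17 with up to 20% mitochondrial UMIs, and without 1 replicate -0.17 to 0.28, Notch1 -0.075 to 0.60 and Jag1 -0.066 to 0.32. For the interaction Notch2 was 0.036 with at least 1000 genes per cell, 0.35 with up to 20% mitochondrial UMIs and -0.54 to 0.35 without 1 replicate. With medians of 4520.5 to 12621 UMIs per cell in the vascular classes of CSA libraries, genes at a few CPM, such as Dll1, Dll4 and Jag2 in mural cells, were at the limit of detection.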
